A study of Mus musculus with 12 samples.

Results

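The insulin-like growth factor (IGF) family was examined as 10 genes: the ligands Igf1 and Igf2, the receptors Igf1r and Igf2r, and the binding proteins Igfbp2, Igfbp3, Igfbp4, Igfbp5, Igfbp6 and Igfbp7. They were chosen by name among 25514 genes, with the measured loss of Igfbp2 in TβRII-/- cells already known, so differences between the genotypes are given for them as a description without a test. For each gene the transcript with the highest total count stood for the gene. RNA was sequenced from 12 libraries of conditionally immortalized mouse kidney proximal tubule (PT) cells, 3 for each of 4 groups. The genotypes, in the labels H2ts6;Tgfbr2fl/fl (TβRII flox/flox PT cells) and H2ts6;Tgfbr2-/- (TβRII-/- PT cells), carry the type II TGF-β receptor gene floxed or deleted, and both express an Immorto-mouse T antigen that is active at 33 °C. All cells came from male mice, were grown with insulin, hydrocortisone and T3 in 2.5% serum, and were moved to 37 °C 5 days before the experiment. Each genotype was kept in culture medium (untreated) or given H2O2 in serum-free medium for 24 h. The TβRII-/- cells were derived from floxed cells by adeno-Cre in vitro, so each genotype is a cell line, and nothing says that libraries of a group came from separate derivations. The p-values therefore measure the spread between libraries, which may be technical, and an effect of H2O2 cannot be told apart from that of serum removal. Errors are SD over 3 libraries unless stated.

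IGF-I and IGF-II are secreted growth factors that signal through the IGF-I receptor, a tyrosine kinase, while the IGF-II receptor (the cation-independent mannose 6-phosphate receptor) takes up IGF-II for degradation and carries lysosomal enzymes. The binding proteins hold the ligands outside the cell and set how much reaches the receptor, and some also bind matrix or cell surface. In the kidney, IGF-I acts on the growth of tubule cells. IGFBP-7 binds IGFs weakly and is secreted by injured tubule cells.

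Igfbp2 and Igfbp5 lie next to each other on chromosome 1 and differed in opposite directions between the genotypes, so the 250 bases before the RefSeq start of each are shown. In GRCm38.p6 they are chr1:72824230-72824479 on the plus strand for Igfbp2, the more upstream of its starts in the table, and chr1:72874866-72875115 on the minus strand for Igfbp5. Capitals mark the GC box GGGCGG and the E-box CACGTG, searched on both strands.
Igfbp2: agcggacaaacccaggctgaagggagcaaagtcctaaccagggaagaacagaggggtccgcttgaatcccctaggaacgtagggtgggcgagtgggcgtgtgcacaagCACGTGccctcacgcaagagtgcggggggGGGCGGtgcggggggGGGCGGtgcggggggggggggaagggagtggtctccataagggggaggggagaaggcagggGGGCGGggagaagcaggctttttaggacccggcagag
Igfbp5: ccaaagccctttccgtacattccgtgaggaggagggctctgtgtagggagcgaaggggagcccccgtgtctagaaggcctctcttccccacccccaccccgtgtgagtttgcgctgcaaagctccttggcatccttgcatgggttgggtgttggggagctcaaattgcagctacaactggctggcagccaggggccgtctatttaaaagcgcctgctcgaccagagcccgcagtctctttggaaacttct
The Igfbp2 stretch held 3 GC boxes and 1 E-box, and the Igfbp5 stretch held none of the 6 motifs searched. The others were the core promoter letters TATAAA, the SMAD motif CAGAC, the NF-Y motif CCAAT and the FoxO motif GTAAACA. No matches overlapped each other. Of 32851 stretches of the same length in the table, 32.7% held GGGCGG, 6.02% CACGTG, 12.4% TATAAA, 42.2% CAGAC, 33.8% CCAAT and 3.17% GTAAACA. The GC content was 67.2% for Igfbp2 and 58.8% for Igfbp5, against a median of 52.4%. A match is a description of the letters and not a binding site.

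Gene counts per library summed to between 15870155 and 20857618, and 12971 genes passed the filter on low counts. The targeted gene Tgfbr2 was counted in every library, at 9248, 8369 and 7562 normalized counts in untreated TβRII flox/flox cells, 13280, 13920 and 13710 with H2O2, 6782, 6675 and 6358 in untreated TβRII-/- cells, and 7221, 7311 and 7116 with H2O2. These counts cover whole transcripts, so RNA that lacks only the deleted part is still counted, and they do not check the labels. Of 16 proximal tubule markers 9 passed the filter. Lrp2, Aqp1, Pax8 and Cdh16 were high in both genotypes, while Slc34a1, Slc22a6, Slc22a8 and Hnf4a had at most 3 counts in every library. The list's sum overlapped between untreated genotypes, at 36570 to 44460 normalized counts in floxed and 41460 to 45550 in TβRII-/- cells. Single markers moved in both directions. Untreated means were lower in TβRII-/- cells for Lrp2 (17280 to 11020), Aqp1 (7103 to 4421) and Ggt1 (75.8 to 7.61). Cubn, Slc5a2 and Slc5a12 were lower too. Means were higher for Pax8 (5223 to 6262) and Cdh16 (10310 to 21440). Other marker lists also moved with genotype. The summed level of 8 epithelial markers, 7 of them tested, was 2664 to 3040 normalized counts in untreated TβRII flox/flox cells and 11620 to 11960 in TβRII-/- cells, where Cdh1 and Epcam, near 0 in floxed cells, averaged 1111 and 664 and Cldn7 was at 0. Of 9 fibroblast markers 4 were tested, and their summed level was 5586 to 6934 against 190 to 241, of which Postn made up most, while Lum and Thy1 were at 0 throughout. The part of these shifts in the differences below was not tested.

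Between the genotypes, 5 family members stood at least 2-fold apart in both conditions, Igf1 among them on few counts. Igfbp2 and Igf2 were abundant or readily detected in TβRII flox/flox cells and low in TβRII-/- cells, while Igfbp5 and Igfbp3 were low or absent in floxed cells and present in TβRII-/- cells. Igf1r and Igf2r were moderately lower in TβRII-/- cells. In untreated cells the libraries of the genotypes did not overlap for 8 of the 9 members tested, 3 higher and 5 lower in TβRII-/- cells, where 65.3% of all genes tested showed no overlap. With H2O2 it was 8 of 9, 2 higher and 6 lower, where 71.0% of all genes did. Some members passed the filter on low counts only through the genotype in which they were higher, which favours a difference for them. These were Igf1, Igf2, Igfbp3 and Igfbp4 untreated and Igf1, Igf2 and Igfbp3 with H2O2, and of the others 4 of 5 and 5 of 6 did not overlap. A fitted difference of at least 10-fold was found for 2.98% of genes upward and 1.09% downward in untreated cells. The median log2 difference of the 9 members was -0.42 in untreated and -0.58 in H2O2-treated cells, beside 0.01 and 0.02 over all genes tested. Lower RNA in these bulk samples can reflect fewer cells with the transcript or less RNA per cell, which cannot be told apart.

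**Figure D1:**
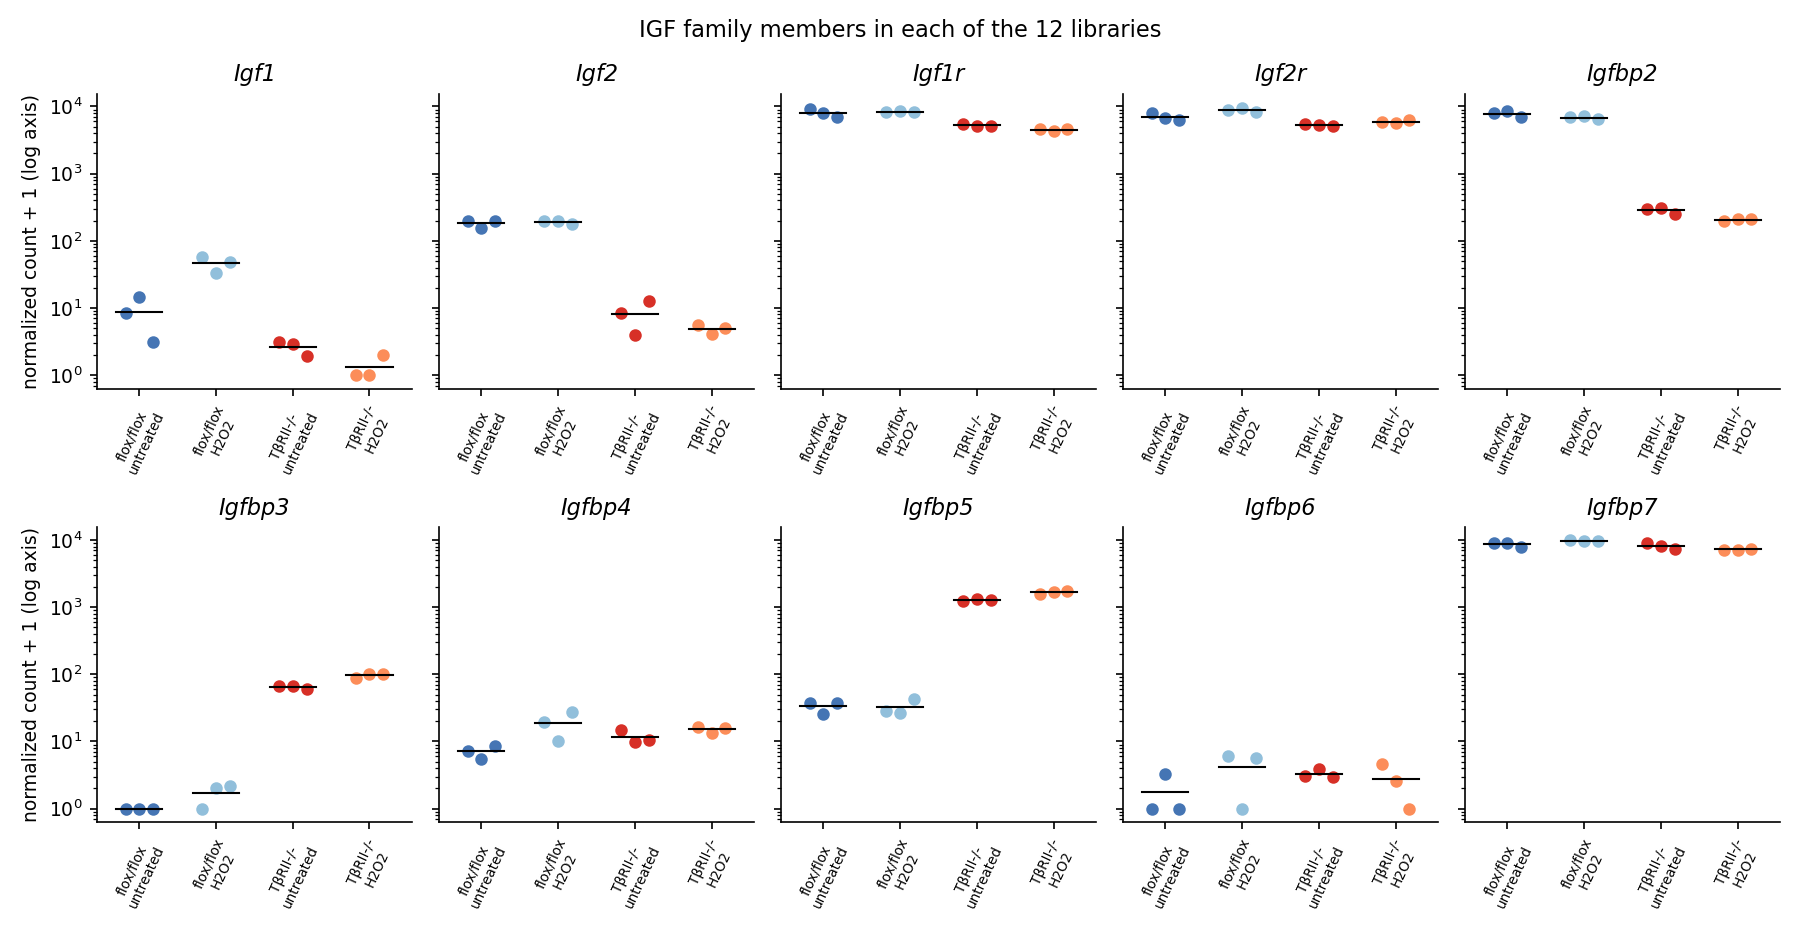
Normalized counts plus 1 (log axis) of the 10 IGF family members in each library, with 1 point per library, 3 libraries per group and a line at the group mean. Igfbp2 and Igf2 are lower in both TβRII-/- groups, Igfbp3 and Igfbp5 are higher in them, and Igf1 stands out in TβRII flox/flox cells with H2O2.

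Igf2, a growth factor best known from the fetus, had 197, 154 and 199 normalized counts in untreated TβRII flox/flox cells and 7.32, 2.90 and 11.5 in untreated TβRII-/- cells. Every floxed library was far above every TβRII-/- library. The level in TβRII-/- cells was 4.02% of that in floxed cells (log2 difference -4.64, SE 0.24). With H2O2 the values were 195, 196 and 174 against 4.62, 3.15 and 3.98 (log2 difference -5.56, SE 0.26). H2O2 itself left Igf2 uncalled in floxed cells (log2 change 0.04, 95% interval -0.23 to 0.31, edgeR adjusted p = 0.835). The change in TβRII-/- cells was also uncalled (-0.88, interval -1.88 to 0.11, edgeR adjusted p = 0.171), on 22 and 13 counts over 3 libraries.

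Igf1, the ligand that circulates in adults and is also made locally, was scarce. Its counts were 7, 12 and 2 in untreated TβRII flox/flox cells and 55, 31 and 42 with H2O2. They were 2, 2 and 1 in untreated TβRII-/- cells and 0, 0 and 1 with H2O2. Igf1 thus passed the filter only through the floxed cells with H2O2. In floxed cells every library with H2O2 was above every untreated one, at means of 45.3 ± 12 and 7.62 ± 5.6 normalized counts (fitted log2 difference 2.56, SE 0.38). Since the high group alone carried Igf1 through the filter, its H2O2 difference is a description and no p is given for it. No fold is given for TβRII-/- cells, where both groups had at most 3 counts per library. Between genotypes with H2O2, 128 counts against 1 gave a ratio of 152 (exact 95% interval 26.8 to 6058, counting error only). In untreated cells, 21 counts against 5 gave a ratio of 4.59 (interval 1.68 to 15.6). The other listed Igf1 transcripts also had more counts in every treated than in any untreated floxed library, but they share reads with the transcript used here.

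Igf1r, the signalling receptor, had 9116, 7887 and 7064 normalized counts in untreated TβRII flox/flox cells and 5523, 5115 and 5099 in untreated TβRII-/- cells. The genotypes did not overlap, and TβRII-/- cells stood at 65.4% of floxed cells (log2 difference -0.61, SE 0.07). With H2O2 the values were 8309, 8691 and 8266 against 4571, 4319 and 4677, or 53.7%. Igf1r fell with H2O2 in TβRII-/- cells by 0.21 on the log2 scale (SE 0.07, edgeR adjusted p = 0.0149). That call was lost without untreated TβRII-/- replicate 1 (edgeR adjusted p = 0.0841) or TβRII-/- H2O2 replicate 2 (edgeR adjusted p = 0.0823). In floxed cells the log2 change was 0.07 (95% interval -0.07 to 0.21, edgeR adjusted p = 0.445), and without untreated floxed replicate 1 it was 0.18 and called (edgeR adjusted p = 0.0221).

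Igf2r, the clearance receptor for IGF-II, had 8015, 6782 and 6303 normalized counts in untreated TβRII flox/flox cells and 5541, 5213 and 5040 in untreated TβRII-/- cells. The genotypes did not overlap (log2 difference -0.42, SE 0.07). With H2O2 it rose in floxed cells to 8779, 9571 and 8383 (log2 change 0.34, SE 0.07, edgeR adjusted p = 0.000231). It was 5959, 5668 and 6213 in TβRII-/- cells with H2O2, all above the untreated libraries, and the change of 0.18 (SE 0.07) missed the threshold (edgeR adjusted p = 0.0511). It passed with the replicate number as a block (edgeR adjusted p = 0.0461), with no filter on low counts (0.0292), with at least 10 counts in every library (0.0474), with only the 6 libraries compared (0.00689), and without any of untreated floxed replicates 1 (0.0333) and 3 (0.0326), untreated TβRII-/- replicate 1 (0.0417) or TβRII-/- H2O2 replicate 2 (0.0468), given as edgeR adjusted p. Per length of transcript, Igf2r RNA was 1.22 ± 0.023 times Igf1r RNA in untreated and 1.47 ± 0.061 times in H2O2-treated floxed cells. The ratio in TβRII-/- cells was 1.40 ± 0.021 and 1.83 ± 0.018. The ratio was higher with H2O2 in every library of both genotypes (exact two-sided permutation p = 0.1 in each, the smallest that 3 against 3 libraries allow, and 0.15 after Benjamini-Hochberg adjustment over the 12 such comparisons of ratios, shares and sums).

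Igfbp2, a secreted binding protein with affinity for both ligands, was the most abundant member per length in TβRII flox/flox cells. It had 7995, 8433 and 7042 normalized counts in untreated floxed cells and 296, 303 and 246 in untreated TβRII-/- cells. The lowest floxed library stood at 7042 and the highest TβRII-/- library at 303. The level in TβRII-/- cells was 3.60% of that in floxed cells (log2 difference -4.80, SE 0.08), just inside the 4% named when the genes were chosen, with Igf2 at 4.02% just outside it. With H2O2 the values were 6912, 7117 and 6503 against 195, 209 and 214, or 3.01% (log2 difference -5.05, SE 0.09). Igfbp2 fell with H2O2 in TβRII-/- cells by 0.45 on the log2 scale (SE 0.10, edgeR adjusted p = 0.000386), and the libraries did not overlap. In floxed cells it fell by 0.19 (SE 0.07, edgeR adjusted p = 0.0166), with libraries that overlapped. The call in floxed cells was lost without untreated floxed replicate 2 (edgeR adjusted p = 0.154) and without floxed H2O2 replicate 3 (edgeR adjusted p = 0.132). It was also lost with counts summed over transcripts (edgeR adjusted p = 0.0798) and with only the 6 libraries compared (edgeR adjusted p = 0.0547).

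Igfbp5, which binds matrix as well as IGFs, showed the opposite pattern. It had 35.8, 24.5 and 36.6 normalized counts in untreated TβRII flox/flox cells and 1215, 1315 and 1280 in untreated TβRII-/- cells, a 39.1-fold difference (log2 5.29, SE 0.12). With H2O2 the counts were 27.4, 25.8 and 41.3 against 1591, 1706 and 1734, a 53.6-fold difference (log2 5.74, SE 0.11). No library of either genotype came near the other. Igfbp5 rose 1.32-fold with H2O2 in TβRII-/- cells (log2 change 0.40, SE 0.07, edgeR adjusted p = 1.07e-05), with no overlap. In floxed cells the log2 change was -0.05 (95% interval -0.48 to 0.37, edgeR adjusted p = 0.866).

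Igfbp3, the main carrier of circulating IGF, had no count in any untreated TβRII flox/flox library and 0, 1 and 1 counts with H2O2. Its counts in TβRII-/- cells were 63, 69 and 63 untreated and 94, 126 and 102 with H2O2. It passed the filter only through TβRII-/- cells. Against a floor of 3 normalized counts per library it was at least 21.4-fold higher in untreated TβRII-/- cells, and with H2O2 the ratio was 135 (exact 95% interval 37.2 to 1123). In TβRII-/- cells Igfbp3 rose with H2O2 from 64.3 ± 3.5 to 95.8 ± 7.9 normalized counts (log2 change 0.57, SE 0.18, edgeR adjusted p = 0.0106), with no overlap. No fold is given for floxed cells. Igfbp1, the gene next to it at a distance of 3539 bases, had at most 1 count in any library.

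Igfbp7, the low-affinity member linked to tubule injury, was abundant in all 4 groups. It had 8890, 9149 and 7985 normalized counts in untreated TβRII flox/flox cells and 8943, 8249 and 7251 in untreated TβRII-/- cells, which overlapped (log2 difference -0.09, SE 0.07). With H2O2 it was 9858, 9563 and 9717 in floxed cells and 7202, 7138 and 7404 in TβRII-/- cells, with no overlap (log2 difference -0.42, SE 0.07). Within floxed cells the H2O2 change of 0.16 (SE 0.07) missed the threshold (edgeR adjusted p = 0.0542). It passed by DESeq2 (adjusted p = 0.0273), with DESeq2 size factors (edgeR adjusted p = 0.0409), with at least 10 counts in every library (0.0396), and without untreated floxed replicate 1 (0.0265), untreated floxed replicate 2 (0.0339) or untreated TβRII-/- replicate 3 (0.0454). Within TβRII-/- cells it fell by 0.17 (SE 0.07, edgeR adjusted p = 0.0486), and its libraries overlapped. That call was lost without any one of 5 of the 6 TβRII-/- libraries (edgeR adjusted p between 0.0764 without H2O2 replicate 3 and 0.333 without untreated replicate 1; 0.123 without untreated replicate 2, 0.123 without H2O2 replicate 1, 0.132 without H2O2 replicate 2), and with the replicate number as a block (0.0563).

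Igfbp4 and Igfbp6 were near the limit of detection. Igfbp4, an inhibitory binding protein, had 6.31, 4.45 and 7.53 normalized counts in untreated TβRII flox/flox cells and 18.3, 9.30 and 26.4 with H2O2, a 2.86-fold rise (log2 change 1.52, SE 0.45, edgeR adjusted p = 0.00623). Without floxed H2O2 replicate 3 this call was lost (edgeR adjusted p = 0.0643). In TβRII-/- cells it had 13.6, 8.71 and 9.57 untreated and 15.7, 12.6 and 14.9 with H2O2 (log2 change 0.43, 95% interval -0.34 to 1.21, edgeR adjusted p = 0.404). Between the genotypes its log2 difference was 0.78 (SE 0.49) untreated and -0.31 (SE 0.36) with H2O2, and the latter turned to 0.25 with counts summed over transcripts. Igfbp6, which prefers IGF-II, had 0, 2 and 0 counts in untreated floxed cells, 5, 0 and 4 with H2O2, 2, 3 and 2 in untreated TβRII-/- cells and 4, 2 and 0 with H2O2. It did not pass the filter and was not tested.

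**Figure D2:**
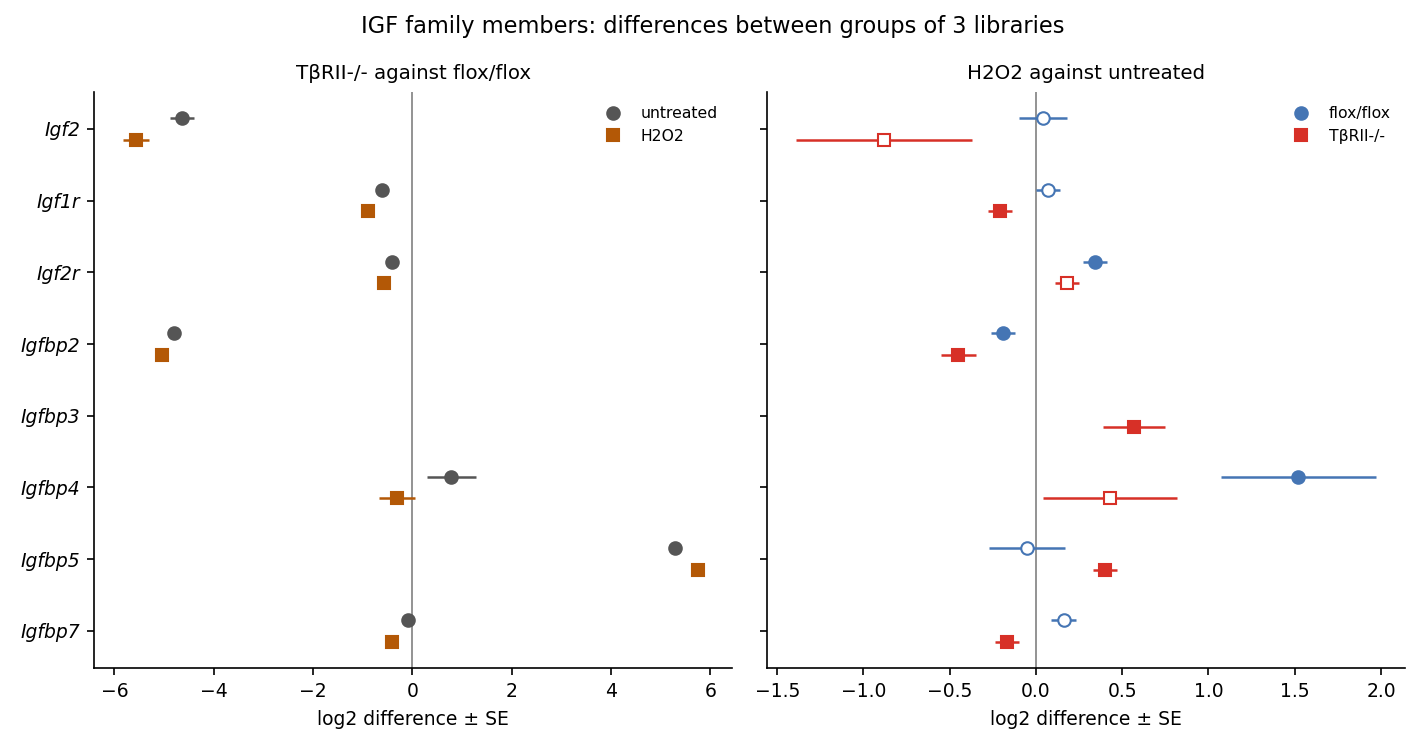
Log2 differences with their SE for members, between genotypes (left) and with H2O2 in each genotype (right), from groups of 3 libraries. On the right, filled symbols passed an adjusted p of 0.05 and open ones did not; on the left nothing was tested. Differences that rest on a group with at most 3 counts per library are left out, as are Igf1 and Igfbp6.

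Per length of transcript, the binding protein RNA of the cell lines differed in amount and in makeup. Levels were expressed as CPM (counts scaled to a common library size) per kb. In untreated TβRII flox/flox cells the order was Igfbp2 at 342 ± 31, Igfbp7 at 96.8 ± 6.8, Igf2r at 45.3 ± 5.7, Igf1r at 37.1 ± 4.8 and Igf2 at 2.23 ± 0.31, and the libraries of Igf2r and Igf1r overlapped. In untreated TβRII-/- cells it was Igfbp7 at 90.9 ± 9.5, Igf2r at 33.9 ± 1.6, Igf1r at 24.3 ± 1.1, then Igfbp2 at 12.3 ± 1.4 and Igfbp5 at 12.2 ± 0.48, which did not differ beyond their spread, and Igfbp3 at 1.37 ± 0.075. Igfbp4, Igf1 and Igfbp6 were at most 0.369 on this scale in every group.

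The level summed over the 6 binding proteins was 439 ± 38 in untreated TβRII flox/flox cells and 117 ± 11 in untreated TβRII-/- cells. With H2O2 it was 408 ± 13 and 108 ± 2.4, which overlapped with the untreated libraries in both genotypes (exact two-sided permutation p = 0.3 and 0.4, adjusted 0.4 and 0.48). Igfbp2 made up 77.8% ± 0.39 of the sum in untreated floxed cells and 10.5% ± 0.49 in untreated TβRII-/- cells. Igfbp7 made up 22.1% ± 0.38 and 77.6% ± 1.3, and Igfbp5 made up 0.0716% ± 0.020 and 10.5% ± 1.2. With H2O2 the Igfbp2 share was lower in every library, at 73.2% ± 1.1 in floxed and 8.30% ± 0.27 in TβRII-/- cells (exact two-sided permutation p = 0.1 in each, the smallest possible, adjusted 0.15). The Igfbp5 share reached 14.9% ± 0.45 in TβRII-/- cells with H2O2. The ratio of Igfbp5 to Igfbp2 per length there was 1.80, 1.79 and 1.78, against 0.902, 0.954 and 1.14 untreated, and in floxed cells it was 0.000921 ± 0.00026 untreated and 0.00102 ± 0.00033 with H2O2.

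**Figure D3:**
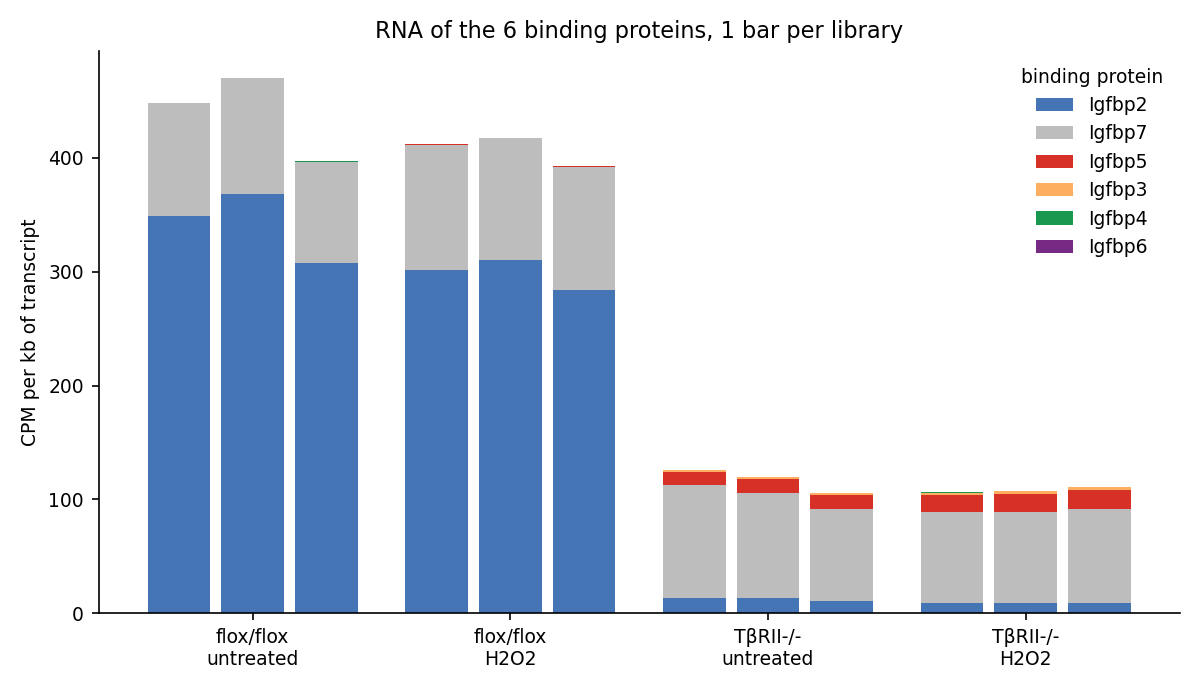
RNA of the 6 binding proteins in CPM per kb of transcript, stacked, with 1 bar for each of the 12 libraries. The bars of TβRII flox/flox cells reach 393 to 471 and consist mostly of Igfbp2, while those of TβRII-/- cells reach 106 to 126 and consist mostly of Igfbp7, with Igfbp5 visible.

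The 2 genes with the opposite patterns lie side by side. In GRCm38.p6, Igfbp2 spans chromosome 1 from 72824480 to 72852474 and Igfbp5, on the other strand, from 72858065 to 72874865, 5590 bases apart with 0 tested genes between them. On the Igfbp2 side, Xrcc5, Smarcal1 and Rpl37a, whose reads may be shared with copies, had log2 differences of -0.09 (SE 0.08), 0.04 (SE 0.09) and 0.01 (SE 0.07) between untreated genotypes and none passed the test (edgeR adjusted p = 0.3, 0.729 and 0.894). With H2O2, Smarcal1 was higher in TβRII-/- cells by 0.26 (SE 0.09, edgeR adjusted p = 0.0108), while the differences of 0.07 for Xrcc5 and 0.13 for Rpl37a did not pass (edgeR adjusted p = 0.422 and 0.135). On the Igfbp5 side, the next tested gene, Tns1, which encodes a focal adhesion protein, spans 73910232 to 74124548. It was lower in untreated TβRII-/- cells by a log2 difference of -1.18 (SE 0.07, edgeR adjusted p = 1.1e-17). Rufy4, which overlaps Tns1 so that their reads may be shared, averaged 4.31 normalized counts in untreated floxed and 65.4 in untreated TβRII-/- cells (fitted log2 difference 3.89, SE 0.35). It passed the filter only through TβRII-/- cells, so no p is given. Arpc2 was higher by 0.23 (SE 0.06, edgeR adjusted p = 0.00204). Between the treated genotypes the differences were -0.62 for Tns1 (SE 0.07, edgeR adjusted p = 2.95e-10) and 0.29 for Arpc2 (SE 0.07, edgeR adjusted p = 0.000182). With H2O2, Rufy4 had 3 counts in floxed cells against 219, a ratio of 61.4 (exact 95% interval 20.7 to 300.0).

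**Figure D4:**
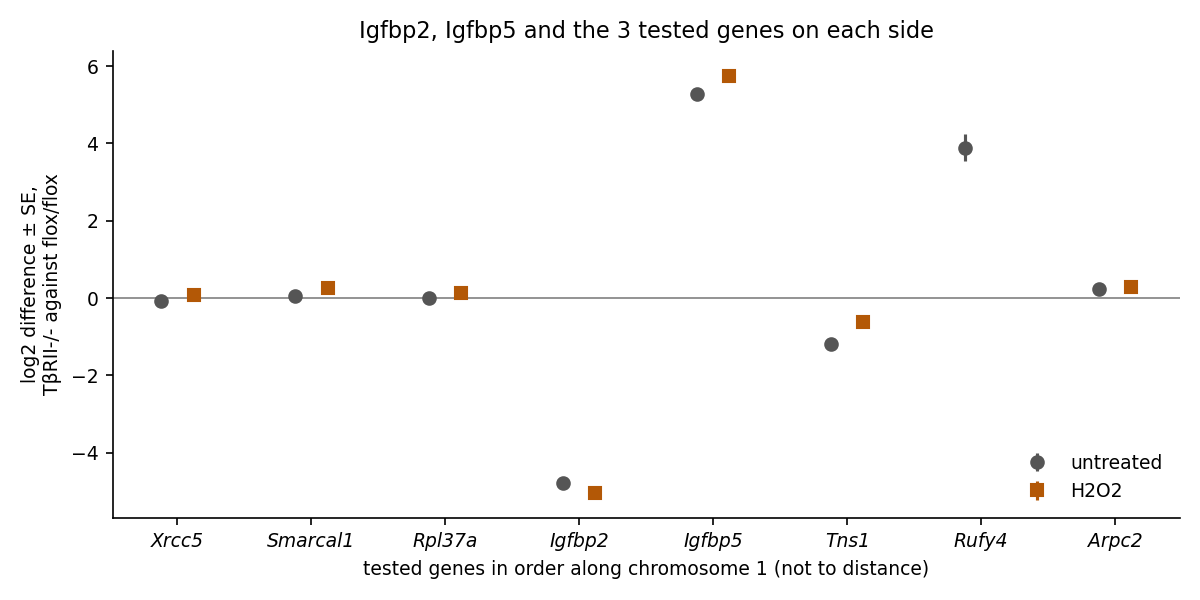
Log2 differences with their SE between TβRII-/- and TβRII flox/flox cells for Igfbp2, Igfbp5 and the 3 tested genes on each side, in order along chromosome 1, untreated and with H2O2 (3 libraries per group). Untreated, Igfbp2 lies at -4.80 and Igfbp5 at 5.29, while the 3 genes before Igfbp2 lie between -0.09 and 0.04; Rufy4 with H2O2 is left out because the floxed group held 3 counts.

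Over the 12 libraries, the genes whose log2 CPM ran most like those of Igfbp2 were Col4a4 (Pearson r = 0.9985), Vcan (0.9981), Slc7a6 (0.998), Brinp3 (0.9974) and Megf6 (0.9974). They encode a basement membrane collagen chain, the proteoglycan versican, an amino acid transporter, and a pair of less studied proteins. Of 12587 protein-coding genes compared, 92 had r above 0.99. All share the split between the lines, so the values describe that split.

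H2O2 in serum-free medium was compared with culture medium in each genotype. In TβRII flox/flox cells, 4 of the 9 members tested changed, where 41.6% of all genes tested did. Igf2r and Igfbp4 rose and Igfbp2 fell. The other was Igf1, which was tested only because of its counts in treated floxed cells, and without it 3 of 8 changed. In TβRII-/- cells, 5 of 9 changed, where 39.6% of all genes did. Igfbp3 and Igfbp5 rose, and Igf1r, Igfbp2 and Igfbp7 fell. With 9 members neither count is read as particular to the family. At an unadjusted p under 0.01 and a fold of at least 1.5, 2 members were called in floxed cells (Igf1 and Igfbp4, where 7.62% of genes were) and 0 in TβRII-/- cells (where 7.79% were). Without Igf1, only Igfbp4 was left in floxed cells. At the adjusted p, the count in floxed cells was 2 without floxed H2O2 replicate 3, and 2 when only the 6 libraries compared were fitted. Both times these were Igf1 and Igf2r. The median log2 change of the 9 members was 0.16 in floxed and -0.17 in TβRII-/- cells, beside 0.01 and 0.02 over all genes. Marker sums moved with H2O2 as well. The epithelial sum was 2161 to 2318 with H2O2 in floxed cells, against 2664 to 3040 untreated, and 9606 to 10180 in TβRII-/- cells, against 11620 to 11960. Not all of its genes went that way. In TβRII-/- cells the means of Krt8 and Krt18 went from 4418 to 2756 and from 4586 to 3557, while those of Cdh1 and Epcam went from 1111 to 1671 and from 664 to 902. The fibroblast sum was 2640 to 3059 with H2O2 in floxed cells, against 5586 to 6934 untreated, and 124 to 148 in TβRII-/- cells, against 190 to 241. The part of these shifts in the members' changes was not tested.

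In the interaction test of H2O2 and genotype, 2 of the 9 members passed, Igf1 and Igfbp7, where 10.4% of all genes tested did. The Igf1 result supports no difference, because that gene was tested only through its counts in treated TβRII flox/flox cells and had 5 and 1 counts in all in TβRII-/- cells. Without it, 1 of 8 passed. For Igfbp7 the difference of the log2 changes was -0.33 (SE 0.10, edgeR adjusted p = 0.0227), with a change of 0.16 in floxed and -0.17 in TβRII-/- cells. The count over the 9 members was 0 without untreated TβRII-/- replicate 1, untreated TβRII-/- replicate 2, TβRII-/- H2O2 replicate 1 or TβRII-/- H2O2 replicate 2. It was 4 without untreated floxed replicate 1, where Igf1r and Igf2r joined, and 1 (Igfbp7) without floxed H2O2 replicate 3. At an unadjusted p under 0.01 and a fold of at least 1.5 only Igf1 was called, where 2.80% of genes were. Without Igf1, no member was called at these limits. For Igfbp2 the difference of the log2 changes was -0.26 (95% interval -0.49 to -0.03, edgeR adjusted p = 0.172), for Igfbp5 it was 0.46 (interval 0.01 to 0.91, edgeR adjusted p = 0.222), and for Igf1r it was -0.28 (interval -0.48 to -0.09, edgeR adjusted p = 0.0602). These intervals are a normal approximation from the SE and are somewhat narrow. For Igfbp5 the unadjusted edgeR p was 0.0549, so its interval above 0 is not read as a difference. The Igf1r value passed by DESeq2 (adjusted p = 0.0429) and with no filter on low counts (edgeR adjusted p = 0.0418).

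Genes around the family were taken from 3 lists of 59 genes in all, of which 45 were tested. Between untreated genotypes 28 passed the test, 13 higher and 15 lower in TβRII-/- cells, where 64.7% of all genes tested passed. With H2O2 it was 27, 13 higher and 14 lower, where 66.4% passed. With H2O2 against untreated, 25 passed in TβRII flox/flox cells (12 higher, 13 lower) and 26 in TβRII-/- cells (16 higher, 10 lower). The shares passing were 62.2% and 60.0% between genotypes, and 55.6% and 57.8% with H2O2, where 41.6% and 39.6% of all genes passed.

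Of 12 relatives of the family (other receptors and binding proteins, insulin, and the Igf2 mRNA-binding proteins), 5 were tested. Ins1 and Ins2 had no count in any library. Insr, the insulin receptor, was lower in untreated TβRII-/- cells (1904 ± 287 to 1308 ± 49 normalized counts, log2 difference -0.54, SE 0.07, edgeR adjusted p = 5.47e-08). With H2O2 Insr rose in both lines, by 0.30 (SE 0.07, edgeR adjusted p = 0.000986) in floxed and 0.37 (SE 0.07, edgeR adjusted p = 0.000129) in TβRII-/- cells. Igf2bp3, an RNA-binding protein of fetal tissue that binds Igf2 mRNA, was lower in TβRII-/- cells (428 ± 39 to 74.9 ± 17, log2 difference -2.51, SE 0.12, edgeR adjusted p = 9.25e-20). Igf2bp2 was higher (3119 ± 52 to 4140 ± 53, log2 difference 0.41, edgeR adjusted p = 6.75e-08), and Igf2bp1 had a log2 difference of -0.02 (edgeR adjusted p = 0.769). With H2O2, Igf2bp1 fell by 0.50 in TβRII-/- cells (edgeR adjusted p = 1.76e-08) and by 0.16 in floxed cells (edgeR adjusted p = 0.029). The call in floxed cells was lost without any one of 4 floxed libraries, untreated replicates 1 and 3 and H2O2 replicates 1 and 3 (edgeR adjusted p between 0.061 and 0.13). Ghr, the growth hormone receptor, fell by 0.44 in TβRII-/- cells (edgeR adjusted p = 0.000676), and its log2 change in floxed cells was 0.05 (edgeR adjusted p = 0.7).

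Of 11 proteases that cleave binding proteins and their inhibitors, all 7 tested differed between untreated genotypes, where 64.7% of all genes tested did. Of the 7, 3 were higher and 4 lower in TβRII-/- cells. One of the 7, Pappa, passed the filter only through floxed cells, where it was high, and all 6 others differed. Pappa, the protease of IGFBP-4, had 44 counts in untreated TβRII flox/flox cells and 1 in TβRII-/- cells, a ratio of 48.0 (exact 95% interval 8.18 to 1940). Adam12, a metalloprotease that cleaves IGFBP-3 and IGFBP-5, was lower (271 ± 52 to 27.0 ± 9.9, log2 difference -3.34, SE 0.19, edgeR adjusted p = 5.97e-18). Htra1, a serine protease, was higher (701 ± 91 to 1712 ± 119, log2 difference 1.29, SE 0.07, edgeR adjusted p = 1.59e-17). Stc1, a stanniocalcin that inhibits PAPP-A, was higher as well (11.5 ± 0.90 to 42.5 ± 9.5, log2 difference 1.87, SE 0.32, edgeR adjusted p = 3.97e-06). Stc2, the other stanniocalcin listed, had far more counts and was lower (4005 ± 500 to 2812 ± 40, log2 difference -0.51, SE 0.07, edgeR adjusted p = 6.49e-08). With H2O2, 6 of the 7 changed in floxed cells, 5 higher and 1 lower, and 4 changed in TβRII-/- cells, 3 higher and 1 lower. Over all genes tested, 41.6% and 39.6% changed. With 7 genes tested, no count is read as particular to the list. The median log2 change of the list was 0.53 and 0.51, beside 0.01 and 0.02 over all genes. Stc2 rose by 0.63 and 0.54, Htra1 by 0.77 and 0.51, and the lysosomal protease Ctsl by 0.78 in TβRII-/- cells (edgeR adjusted p = 1.17e-11). Adam12 fell by 1.15 in floxed cells (edgeR adjusted p = 7.04e-08) and by 0.96 in TβRII-/- cells (edgeR adjusted p = 0.0126), the latter call being lost without untreated TβRII-/- replicate 1 (0.137) or H2O2 replicate 3 (0.0657). Stc1 rose by 1.08 in floxed cells (edgeR adjusted p = 0.0148), a call that was lost without floxed H2O2 replicate 2 (0.0857) or 3 (0.0795).

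Of 36 genes of signalling below the receptor, 33 were tested. Between untreated genotypes 9 were higher and 9 lower in TβRII-/- cells, or 54.55% of those tested, beside 64.7% of all genes. Grb10, an adaptor that binds and dampens the IGF-I and insulin receptors, went from 7345 ± 337 to 1195 ± 62 normalized counts (log2 difference -2.62, SE 0.07, edgeR adjusted p = 9.59e-29). Socs2, a suppressor of growth hormone signalling, went from 209 ± 22 to 73.3 ± 14 (log2 difference -1.51, edgeR adjusted p = 3.28e-11). Pik3cb, a catalytic subunit of PI3-kinase, was lower (log2 difference -0.87, edgeR adjusted p = 1.08e-15), and Inpp5d, the lipid phosphatase SHIP1, was higher, from 135 ± 7.2 to 408 ± 28 (log2 difference 1.60, edgeR adjusted p = 3.45e-15). With H2O2, 16 passed in floxed cells (6 higher, 10 lower) and 19 in TβRII-/- cells (12 higher, 7 lower). The shares were 48.48% and 57.58%, beside 41.6% and 39.6% of all genes. Eif4ebp1, the repressor of translation controlled by mTORC1, fell by 0.72 in floxed and 0.77 in TβRII-/- cells (edgeR adjusted p = 6.25e-11 and 1.17e-11). Socs3 rose by 0.52 and 0.66 (edgeR adjusted p = 7.38e-05 and 8.73e-07). In floxed cells Grb10 fell by 0.65 (edgeR adjusted p = 6.17e-11) and Socs2 fell by 1.30 (edgeR adjusted p = 5.27e-09). In TβRII-/- cells Ptpn1, a phosphatase of the insulin receptor, fell by 0.43 (edgeR adjusted p = 5.8e-07) and the pseudokinase gene Trib3 rose by 0.42 (edgeR adjusted p = 0.00821), which was lost without untreated TβRII-/- replicate 1 (0.0668) or H2O2 replicate 2 (0.073). Between genotypes with H2O2, Trib3 was higher by 0.87 in TβRII-/- cells (edgeR adjusted p = 5.52e-07) and Socs1 was lower (log2 difference -1.01, edgeR adjusted p = 0.015), the latter being lost without floxed H2O2 replicate 3 (0.0538) or TβRII-/- H2O2 replicate 3 (0.115).

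**Figure D5:**
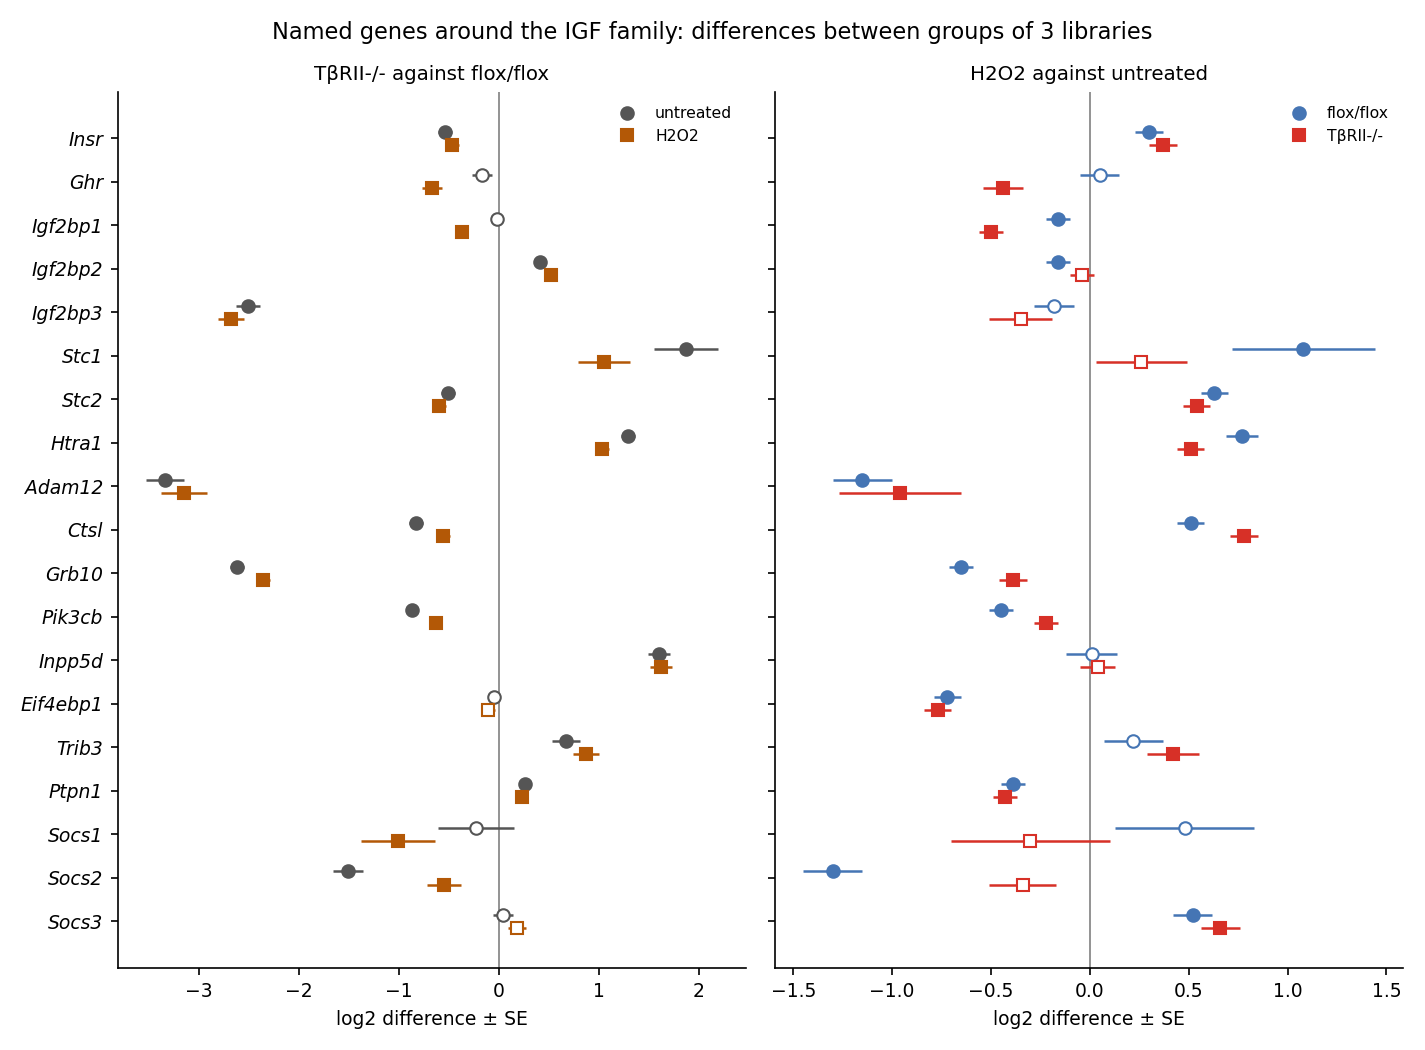
Log2 differences with their SE for 19 named genes around the IGF family, between genotypes (left) and with H2O2 in each genotype (right), from groups of 3 libraries. Filled symbols passed an adjusted p of 0.05 and open ones did not; Grb10, Adam12 and Igf2bp3 lie farthest to the left between genotypes, and Pappa is left out because it had 1 count in untreated TβRII-/- cells.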

How the data were processed

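The authors removed adapters with fastp, aligned reads of TruSeq stranded mRNA libraries with STAR to GRCm38.p6 (GENCODE M23) and counted them with featureCounts of Rsubread. Versions of fastp and STAR, the strand setting and the handling of reads shared by transcripts, copies or overlapping genes are not given in the sources used here. The values deposited by the authors are raw counts per transcript, although the tests had been designed for gene counts. GENCODE M39 held the identifiers of 104820 of the 106332 transcripts, from 25514 genes. The others held 1.22% to 1.28% of a library's counts. The transcript with the highest total stood for each gene, since a read can be counted on several transcripts. The labels and the study's methods differ in the unit of the H2O2 dose and in the RNA kit.

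Groups came from the labels. Counts were fitted in R 4.3.3 with edgeR 4.0.16 (limma 3.58.1): TMM, filterByExpr, glmQLFit and glmQLFTest on 1 model of all 12 libraries, with Benjamini-Hochberg adjustment over 12971 genes and calls at an adjusted p of 0.05. Normalized counts are scaled to the mean effective library size of 17351835. Levels between genes are CPM per kb of transcript, computed here. Exact permutation tests and exact binomial intervals used scipy 1.17.1 and Python 3.11.15. The exact intervals and the floor of 3 counts cover counting error only. The 95% intervals of log2 changes are a normal approximation from the SE of the edgeR fit. They include the spread between libraries and are somewhat narrower than the edgeR test implies. Depth in gene counts ranged from 15870155 to 20857618.

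The family and the lists were chosen with earlier results of these data known. Named were the 10 members, in each list and comparison up to 4 called genes with the largest log2 difference and a mean of at least 10 in the higher group, the tested relatives of the family, the 5 genes most like Igfbp2, and 3 tested genes on each side of Igfbp2 and Igfbp5. Markers were read for 7 cell types. Summed endothelial markers were 127 to 138 in untreated floxed, 22.7 to 26.4 in treated floxed, 465 to 586 in untreated and 39.3 to 65.6 in treated TβRII-/- libraries, almost wholly Kdr. Leukocyte markers lay between 139 and 153 in floxed and between 224 and 278 in TβRII-/- libraries. Podocyte markers lay between 2927 and 3523 in floxed and between 1061 and 1265 in TβRII-/- libraries. Of these, the untreated mean of Synpo was lower in TβRII-/- cells (2900 to 367) and that of Podxl higher (36 to 520). Distal nephron markers lay between 1.92 and 15.9 over all libraries. Coordinates and promoters are from RefSeq tables of GRCm38.p6. The fits were tested on simulated data. Alternatives were DESeq2 1.42.0 and its size factors, other filters, summed transcripts, a replicate block, only the 6 libraries compared, other call limits, and leaving out each library. Same-numbered libraries of the untreated genotypes had weak positive correlations of their deviations (r = 0.121, 0.135 and 0.152 over genes). Unlike-numbered libraries reached more, with r = 0.388 between untreated floxed replicate 1 and floxed H2O2 replicate 2. Pairing by number was therefore not established, and the main fits used no block. H19 was not analysed here.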

Additional observations from a re-analysis of the deposited data

Results flagged for a closer look

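Igf1 passed the interaction test of H2O2 and genotype (edgeR adjusted p = 0.0353), but it was tested only through its counts in treated TβRII flox/flox cells, so the value is given as a description and supports no difference between the genotypes. Counts were 7, 12 and 2 untreated and 55, 31 and 42 with H2O2 in floxed cells, against 2, 2 and 1 and 0, 0 and 1 in TβRII-/- cells. The H2O2 effect on Igfbp7 differed between the genotypes (difference of log2 changes -0.33, edgeR adjusted p = 0.0227), with means of 8675 and 9713 normalized counts in floxed cells and 8148 and 7248 in TβRII-/- cells, untreated and treated. Over all alternatives the adjusted p lay between 0.0125 and 0.477 for Igf1 and between 0.00446 and 0.115 for Igfbp7. With 3 libraries per group no library was examined as an outlier.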

How the results depend on the processing

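The genotype differences of Igf2, Igf1r, Igf2r, Igfbp2 and Igfbp5 kept their direction under every alternative compared for them. The DESeq2 fit and the fit of only the 6 libraries were not compared for these differences. Igf2 was not tested with at least 10 counts required in every library. Untreated and with H2O2, 5 members differed by at least 2-fold (Igf1, Igf2, Igfbp2, Igfbp3 and Igfbp5), and 5 did without any 1 library. With at least 10 counts required in every library it was 2 (Igfbp2 and Igfbp5), since the others were not tested. At an unadjusted p under 0.01 and a fold of at least 1.5, 2 members were called with H2O2 in floxed cells, 0 in TβRII-/- cells and 1 in the interaction, and of the genes around the family 13 between untreated genotypes, 13 between treated ones, 7 with H2O2 in floxed and 4 in TβRII-/- cells. These limits remove small changes by construction. Among the members called at these limits, Igf1 is 1 of the 2 in floxed cells and the only 1 in the interaction, and its values are a description. With only the 6 libraries compared, 2 members were called in floxed cells (Igf1 and Igf2r). The interaction called 1 member with at least 10 counts in every library and 1 with summed transcripts.

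Without 1 library at a time, members called ranged from 2 to 6 in floxed cells, 4 to 6 in TβRII-/- cells and 0 to 4 in the interaction, and genes around the family from 25 to 28 and 22 to 27 between genotypes and 20 to 24 and 22 to 26 with H2O2. The counts in floxed cells all include Igf1, and some in the interaction do, although its values are a description. Signs turned for log2 changes near 0 that were not called: in floxed cells, leaving out 1 library at a time, Igf2 ranged from -0.06 to 0.11, Igf1r from -0.01 to 0.18 and Igfbp5 from -0.27 to 0.07. With summed transcripts Ghr in floxed cells was -0.09, and the described genotype difference of Igfbp4 with H2O2 was 0.25. The causes were not tested.

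With the replicate number as a block, 4 members were called in floxed cells, 5 in TβRII-/- cells (with Igf2r in and Igfbp7 out) and 2 in the interaction, and 28 and 27 genes around the family between genotypes and 23 and 25 with H2O2. The block changed no other member's call. Pairing by number was not established. Between untreated and treated floxed libraries of the same number the correlations were -0.343, 0 and 0.116. Igf1 is among the members called with the block in floxed cells and in the interaction, and its values are a description. Igf1, Igfbp3, Igfbp4 and Igfbp6 rest on few counts, which limits their precision.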
